A study of Triticum aestivum with 45 samples.

Results

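Spikelets of 2 doubled haploid lines of bread wheat (Triticum aestivum) were compared: GS-1-EM0040, called DH1, and GS-1-EM0168, called DH2. A doubled haploid is made by doubling the chromosomes of a plant grown from a gamete, so that it carries identical alleles at every locus. Both lines have Superb, a Canadian spring cultivar, as their recurrent parent. The labels give CIMMYT11 as the other parent of DH1 and CM82036 as that of DH2, so each group stands for 1 line. Members were all libraries of both lines except DH1 ethephon replicate 1, which makes 14 libraries of DH1 and 15 of DH2, 29 of the 45 in the series. Another 14 libraries of Superb (its ethephon replicate 1 left out) were set beside them and took no part in the comparison.

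Each line was sampled in 5 conditions at flowering, with 3 libraries a condition, apart from 2 for DH1 ethephon. Untreated spikelets were taken at 0 h. Sprayed spikes received water, MeJA (the methyl ester of jasmonic acid), SA (salicylic acid) or ethephon, which releases ethylene, each hormone at 100 µM, and were harvested after 8 h. The labels speak of spikelets from 5 plants in a treatment group and leave unsaid whether each replicate was a separate plant, so p-values measure the spread between these libraries, which may be technical. Spikelet markers could not be checked, because the gene identifiers carry no names in the sources used here. In whole spikelets, fewer cells of a type and less RNA per cell cannot be told apart.

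A line bred by crossing to a recurrent parent keeps the recurrent parent's alleles over most of its chromosomes and the donor's alleles in a number of segments. Alleles that differ in their regulatory sequence, or genes that a parent lacks, can then show as expression differences that sit together along a chromosome. Bread wheat is hexaploid and carries an A, a B and a D copy of each chromosome, written 1A to 7D, and a gene of one copy often has near-identical homoeologues on the others. Reads were counted on 1 reference sequence. A level of 0 therefore does not tell a silent gene from a missing one, or from an allele whose reads fell on another copy.

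A few libraries stood apart from their line. Over genes that the other 14 DH2 libraries lacked and DH1 had (142 genes, at most 0.05 and at least 1 CPM), DH2 untreated replicate 3 stood at 24.2% of the DH1 level, with 31 genes at 1 CPM or more. CPM is a gene's count scaled to a common library size. For the 72 of those genes that Superb has, the figure was 47.4%, and for the 53 that Superb lacks it was 2.54%. By the same measure DH2 water replicate 1 stood at 3.11%, DH2 MeJA replicate 1 at 2.75% and DH2 untreated replicate 2 at 1.51%. The left-out DH1 ethephon replicate 1 stood at 10.9% of DH2 over the genes that DH1 lacks. The other 25 libraries lay between 0.166% and 0.543%, with 0 such genes at 1 CPM. The counts below are also given without the library that stood farthest apart, DH2 untreated replicate 3. Its part in the results that are given only with it was not tested.

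Line identity went with small differences in many genes and with large ones in a smaller set. Of 63215 genes tested with edgeR's quasi-likelihood test, with condition as a block, 12773 (20.2%) had an adjusted p under 0.05. Of these, 7247 were higher and 5526 lower in DH1. The median log2 fold change was 0.60 among the higher genes and -0.46 among the lower ones. Among them 2685 genes (4.25%) differed by 1 or more on the log2 scale and are called large differences below, 1685 higher and 1000 lower in DH1, with medians of 1.60 and -1.88. Only 820 of the 2685 had a mean log2 CPM of 1 or more. The median over all tested genes was -0.01. Without DH2 untreated replicate 3 the counts were 13680 and 2883.

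The large differences held few of the counts. Those higher in DH1 took 1.74% ± 0.238 (SD, n = 14) of the counts in DH1 and 0.535% ± 0.143 (n = 15) in DH2. Those lower in DH1 took 0.267% ± 0.0162 and 0.960% ± 0.0498. In 1037 of the 2685 genes, or 38.6%, the DH1 and DH2 libraries did not overlap in any of the 5 conditions. Over all tested genes 1385 met that measure, or 2.19%, where 4.25% had been called with a fold change of this size.

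Each of the 4 genes below was close to absent in one line. They were the highest and the lowest pair by fold change among called genes whose mean log2 CPM was 1 or more and whose lines lay apart in every condition. Genes outside those limits had larger fold changes. TraesCS1A01G385900, on chromosome 1A, ran from 27.6 to 42.7 CPM in DH2, with a median of 36.2, and from 0 to 0.108 CPM in DH1, with a median of 0. All DH2 libraries lay above all DH1 libraries, at a log2 fold change of -9.95 ± 0.20 (SE; adjusted p = 1.17e-30). Superb, at 0 to 0.0854 CPM, resembled DH1. TraesCS5A01G119300, on 5A, was the reverse in this respect. It ran from 34.7 to 113 CPM in DH2, with a median of 43, and from 0 to 0.275 in DH1, with a median of 0. Its log2 fold change was -9.46 ± 0.20 (adjusted p = 7.33e-37), and Superb, at 25.5 to 94.6 CPM, resembled DH2. Its 3 highest libraries in DH2 were the untreated ones, at 113, 72.9 and 53.3 CPM.

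TraesCSU01G083400, which the reference places on no chromosome, ran from 15.3 to 133 CPM in DH1, with a median of 83.4. In DH2 it ran from 0 to 0.623 CPM, with a median of 0, and in Superb from 0 to 0.502. Its log2 fold change was 10.25 ± 0.32 (adjusted p = 9.82e-27). Within DH1 it responded to treatment. It stood at 57.0, 43.7 and 17.8 CPM untreated, at 115, 125 and 82.5 after water, and at 18.6, 20.7 and 15.3 after MeJA. The MeJA libraries lay below all water libraries, at a log2 fold change of -2.56 (adjusted p = 3.14e-07).

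TraesCS1A01G278800, on 1A, was present in DH1 and Superb and nearly absent in DH2. It was also a gene that MeJA raised. In DH1 it stood at 30.3, 35.6 and 20.6 CPM after water and at 169, 244 and 244 after MeJA, a log2 fold change of 2.93 (adjusted p = 6.02e-06). Superb reached 203, 246 and 277 CPM after MeJA. The DH2 libraries ran from 0 to 3.58 CPM, with a median of 0.105, and the 2 highest were water replicate 1 at 3.58 and untreated replicate 2 at 1.04. In DH2 the MeJA libraries lay at 0.185, 0.160 and 0.122 CPM. The difference in the MeJA effect between the lines was not called for this gene. The log2 fold change between the lines was 6.85 ± 0.44 (adjusted p = 1.06e-13).

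**Figure D1:**
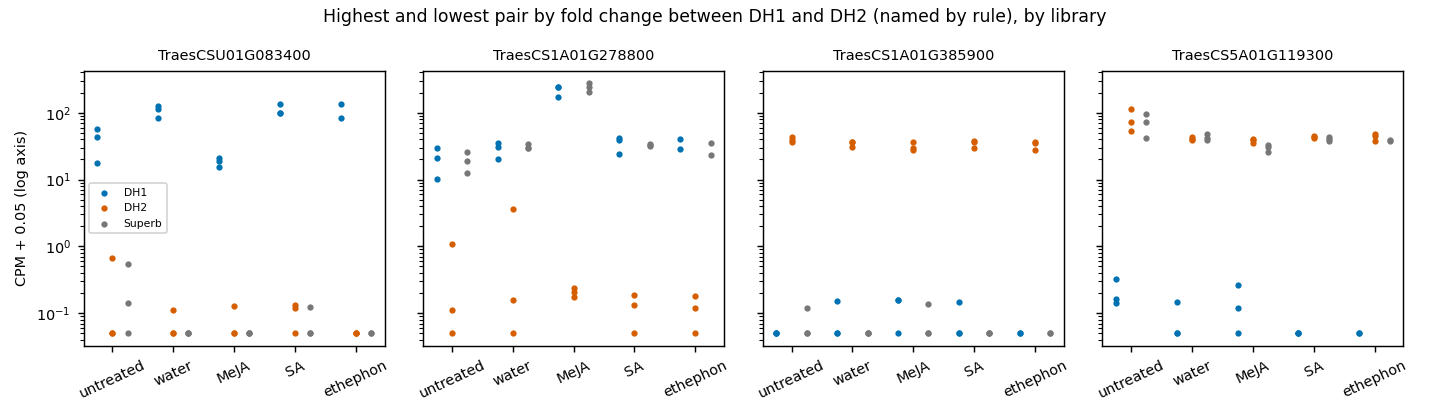
CPM plus 0.05 on a log axis for the highest and lowest pair by fold change among called genes with a mean log2 CPM of 1 or more whose lines lay apart in every condition, by condition, where each point is 1 library of DH1, DH2 or Superb (ethephon replicate 1 of DH1 and of Superb left out). DH1 and DH2 lie apart in every condition, and Superb lies with DH2 for TraesCSU01G083400 and TraesCS5A01G119300 and with DH1 for the other pair.

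Genes that were present in one line and close to absent in the other were counted without a test. A mean of at most 0.05 CPM in DH1 and at least 1 CPM in DH2 was found for 126 genes. The mirror image, near absence in DH2, was found for 106. The genes that DH1 lacked had a median level of 3.26 CPM in DH2 and reached 34.6 CPM, and 46 of them had 0 counts in every DH1 library. The genes that DH2 lacked had a median level of 2.22 CPM in DH1 and reached 28.5 CPM, and 15 had 0 counts in DH2. Without DH2 untreated replicate 3, 142 genes counted as near absent in DH2.

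Superb had both kinds. Of the 126 genes near absent in DH1, Superb had 46 at 1 CPM or more and 75 at 0.05 CPM or less. Of the 106 near absent in DH2, Superb had 40 and 51. The 46 genes and the 51 that DH1 has and Superb lacks set DH1 apart from Superb, and the other 40 and 75 set DH2 apart. The genes near absent in DH1 were most frequent on 1A, with 15, and on 3B and 5A, with 13 each. Those near absent in DH2 were most frequent on 7A, with 17, 6A, with 14, and 5A, with 13.

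The large differences were uneven along the genome. The share of tested genes with a large difference was highest on 7A, at 7.92%, followed by 5B at 7.53%, 5A at 7.16%, 1A at 6.97%, 6A at 6.83%, 6B at 5.95% and 3B at 5.66%. It was lowest on 3A, at 1.71%. Among genes placed on no chromosome it was 10% of 687. By subgenome it was 5.19% in A, 4.33% in B and 3.04% in D, beside 4.25% over all genes.

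Chromosomes were divided into 615 windows of 100 consecutive tested genes. A window was called dense where the share of its genes with a large difference was at least 3 times the overall share. This gave 40 dense windows in 25 blocks, where adjacent windows were joined. The first or last 2 windows of a chromosome held 50% of the dense windows and 13.7% of all windows.
The dense windows held 4411 tested genes and 884 of the 2685 large differences, or 32.9%. In them, as the rule for a dense window fixes, a larger share of genes had a large difference, 20.0% against 2.98% in the other windows. Without DH2 untreated replicate 3 there were 40 dense windows again.

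Superb, whose libraries were not used in the contrast, shows which of the lines lies nearer to the recurrent parent at each gene. In 691 of the 2685 genes Superb lay nearer to the midpoint than to either line. For those genes the nearer side does not single out 1 departing line, and the counts by side below include them. Over all 2685 genes Superb was nearer to DH1 in 1358 and nearer to DH2 in 1327, a share of 50.6% for DH1 (exact 95% binomial interval 48.7% to 52.5%, which covers counting error only). Over all dense windows together Superb was nearer to DH1 in 467 genes and to DH2 in 417, but within most single windows the side was far from even. In 18 of the 40 windows at least 80% of the genes had Superb nearer to DH1, so that DH2 was the line that differed. In another 14 at least 80% had Superb nearer to DH2, and 8 were mixed. One-sided windows were frequent elsewhere too. Of the 122 other windows with at least 5 large differences, 44 reached 80% for DH1 and 36 for DH2, and 42 were mixed. Superb lay nearer to the midpoint than to either line in 12.2% of the large differences in dense windows and in 32.5% of those elsewhere.

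**Figure D2:**
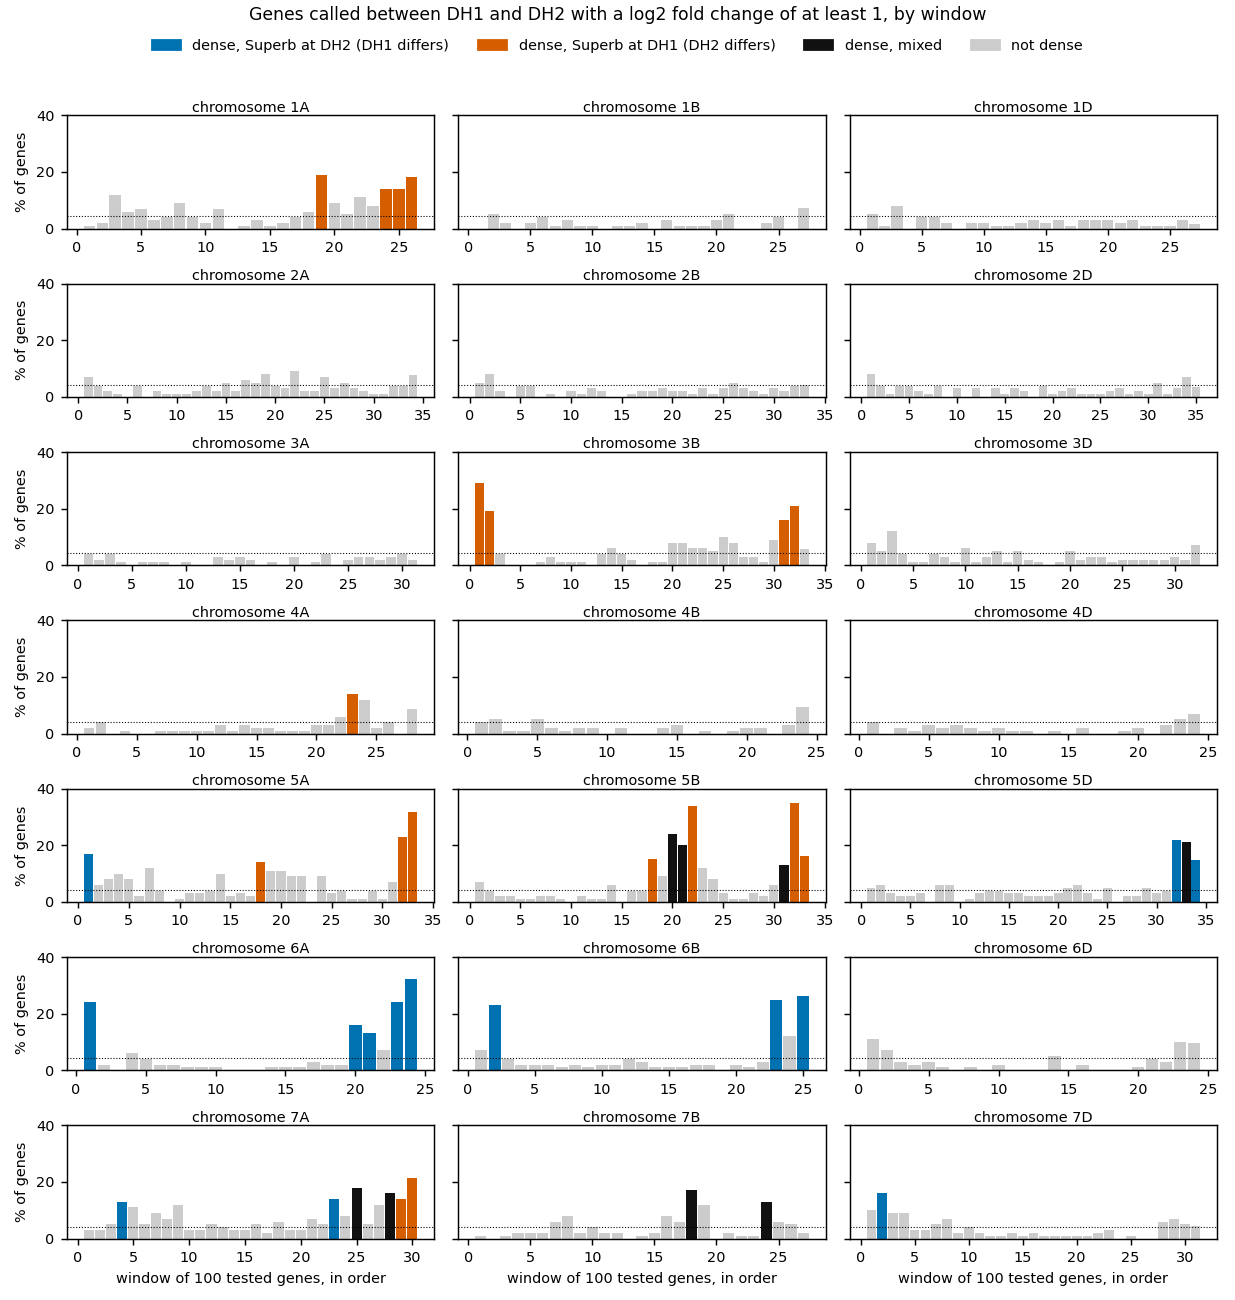
Percent of genes with a large difference between DH1 and DH2 (called, 1 or more on the log2 scale) in each window of 100 tested genes, in order along the 21 chromosomes, with a dotted line at the 4.25% of all tested genes. Dense windows are coloured by the line that Superb resembles in at least 80% of their called genes, and 50% of them sit in the first or last 2 windows of a chromosome.

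The windows where DH2 departed from Superb lay on 1A, 3B, 4A, 5A, 5B and 7A. On 3B they stood at both ends. In the first 6.05% of the tested genes of 3B, 48 of 200 genes had a large difference and Superb resembled DH1 in 46. Of these genes 21 were higher and 27 lower in DH1. Between 90.8% and 96.8% of the way along 3B, there were 37 of 200, and Superb resembled DH1 in 35. The end of 5A held 58 of 210, with Superb near DH1 in 55. The end of 5B held 76 of 374, with 62 near DH1, and that of 7A held 66 of 368, with 57 near DH1. The end of 1A held 61 of 382, with 54 near DH1.

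The windows where DH1 departed from Superb lay on 5A, 5D, 6A, 6B, 7A and 7D. Chromosome 6A carried them at both ends. The first 4.04% of its tested genes held 24 of 100 with a large difference, and Superb resembled DH2 in 23. From 88.9% of the way to its end there were 80 of 274, with Superb near DH2 in 74, and 61 of the 80 were higher in DH1. Chromosome 6B resembled 6A, with 23 of 100 near its start and 49 of 188 in its last window, where Superb was near DH2 in 47. The end of 5D held 60 of 315, with 52 near DH2.

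On chromosomes 5A and 7A the departing line changed along the chromosome, and on 5B a block in the middle was mixed. The first window of 5A had Superb near DH2 in 14 of 17 genes, and its last pair near DH1 in 55 of 58. On 5B a block of 3 windows between 56.3% and 65.2% of the way along held 78 of 300 genes with a large difference, and Superb resembled DH1 in 46 and DH2 in 32. On 7A the window from 71.7% to 75% had Superb near DH2 in all 14 genes, and the end of the chromosome near DH1 in 57 of 66.

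**Figure D3:**
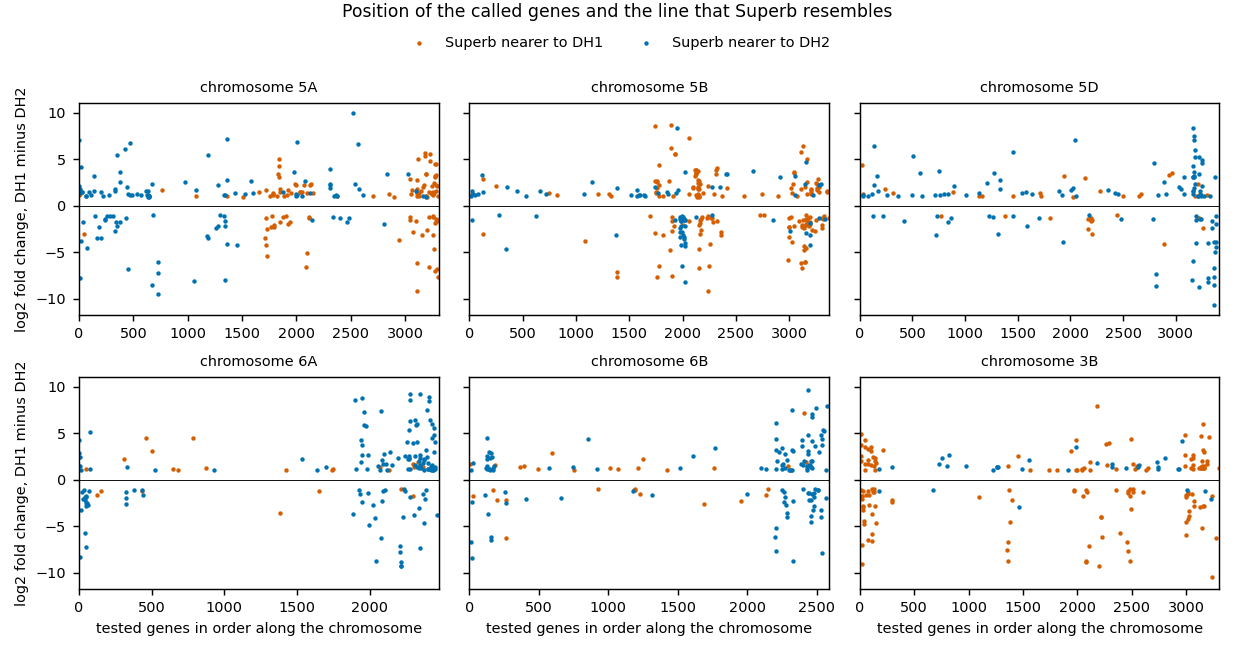
Log2 fold change (DH1 minus DH2) of genes called with a size of at least 1, against their order among the tested genes of 6 chromosomes, coloured by the line that Superb is nearer to. Points of one colour gather at the ends of 3B, 5A, 5D, 6A and 6B. The colour changes along 5A and is mixed in the middle of 5B.

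The other windows held 1732 large differences. Of these genes 64.8% were higher in DH1, and of those in dense windows 58.9%, with no test of that difference. Their median size was 1.53 on the log2 scale, against 2.11 in dense windows. In this wider part of the genome, Superb was nearer to DH1 in 854 and to DH2 in 878.

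Condition took a larger share of the variance in spikelet expression than line, but the shares do not rank effect sizes. Condition has more levels than line, and the shares were not corrected for the number of levels. Without any effect, a term still takes some share, and more so with more levels. Small median shares of line and of line by condition are therefore no sign of an effect in a typical gene. Condition also includes the change from untreated to sprayed spikelets. Over 45711 genes whose mean log2 CPM was 1 or more, condition took a median of 44.7% of the variance, line 2.80%, line by condition 4.69% and the rest 38.2%. For the 820 of them with a large difference, which were chosen for differing by line, line took a median of 66.8%. A principal component analysis used only the tested genes with the most variable log2 CPM, whatever their level. Its shares therefore refer to another set of genes. The second component, with 26.6% of the variance, placed the DH1 libraries between 43.8 and 89.7 and the DH2 libraries between -82.1 and -20.7. On the first, with 36.4%, the lines overlapped. There DH2 MeJA replicate 1 stood at 75.37, against 151.33 and 160.27 for DH2 MeJA replicates 2 and 3. The MeJA libraries of DH1 ran from 104.72 to 148.92. The cause was not tested.

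The lines were then compared within each condition, with separate libraries for each. In untreated spikelets 1529 genes (2.42%) were called, 707 higher and 822 lower in DH1. After water 2812 (4.45%) were called, 1669 higher and 1143 lower. After MeJA there were 1887 (2.99%), 966 higher and 921 lower. After SA there were 2559 (4.05%), 1583 higher and 976 lower. After ethephon, with 2 DH1 libraries, there were 1564 (2.47%), 847 higher and 717 lower. Without DH2 untreated replicate 3 the untreated count was 1768.

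Several of these counts moved by over 1.5 times without a single library. The water count fell to 1820 or 1762 without DH1 water replicate 2 or 3, and to 1831 or 1573 without DH2 water replicate 1 or 3. The SA count was 1574, 4076 and 1572 without DH1 SA replicates 1, 2 and 3, and 1564, 1566 and 1703 without the DH2 ones. The ethephon count was 897 without DH1 ethephon replicate 2.

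Most genes called between the lines in one condition had the same direction in the others. Of the 1529 genes called in untreated spikelets, 1424 (93.1%) had the same direction in all 4 sprayed conditions, 56 in 3 of them and 49 in fewer. Over all 63215 tested genes, 18838 had 1 direction in all 5 conditions. Taken 1 condition at a time, the share with the same direction ran from 96.3% in MeJA to 98.2% in water. Between 66.6% (ethephon) and 76.5% (water) were also called there in that direction, where 2.47% and 4.45% of all tested genes were called. Genes called after MeJA kept their direction in 95.5% to 97.2% of cases in the other conditions. Of the 2685 large differences, 2438 had the same direction in all 5 conditions and 769 were called in all 5, where 874 of all tested genes were called in all 5. The large differences were chosen from the same libraries, so their agreement in direction is in part fixed by that choice.

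**Figure D4:**
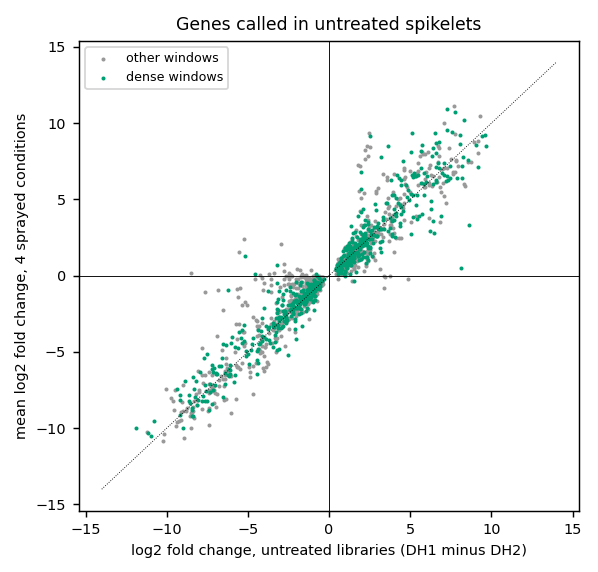
Mean log2 fold change (DH1 minus DH2) over the 4 sprayed conditions against that in untreated libraries, for the 1529 genes called in untreated spikelets, with genes of dense windows in green and the line of equal values dotted. In 1424 of the genes the untreated direction was found in each sprayed condition.

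In each condition the highest and lowest pair among called genes with a mean log2 CPM of 1 or more are given, leaving out genes already named, some of which had larger fold changes there. In untreated spikelets these were on 6A, 3B and 6D. TraesCS6A01G408200, in the last window of 6A, stood at 50.6, 58.1 and 49.5 CPM in DH1 and at 0, 0.830 and 0 in DH2 (log2 fold change 7.75 ± 0.45, adjusted p = 1.68e-10). TraesCS6A01G384500, in the window before it, stood at 28.9 ± 3.44 CPM (SD, n = 3) in DH1 and 0.194 ± 0.283 in DH2. Superb lacked both genes, as DH2 did, with means of 0.0579 and 0.0517 CPM over its 14 libraries. TraesCS3B01G593500 was the reverse, at 0, 0.0939 and 0 CPM in DH1 and 58.0, 39.6 and 33.4 in DH2 (adjusted p = 1.66e-13), with Superb at 0 to 0.101. TraesCS6D01G392000 stood at 26.1, 29.8 and 65.7 CPM in DH2, of which the last is replicate 3. In DH1 it stood at 0.0917, 0 and 0, and Superb had it at 16.3 to 28.6 CPM.

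After water, the lower pair lay on 6A and 6B and the higher pair on 5D and 3B. TraesCS6B01G414300 stood at 0.0221 ± 0.0382 CPM in DH1 and 50.9 ± 9.98 in DH2. TraesCS6A01G374100 stood at 0.0441 ± 0.0764 and 66.5 ± 6.20. Superb had both, at means of 41.4 and 63.3 CPM. Of the higher pair, TraesCS5D01G537600 stood at 14.5 ± 1.88 CPM against 0.252 ± 0.124 in DH2, a log2 fold change of 5.76 ± 0.28 (adjusted p = 1.72e-13). TraesCS3B01G001800, in the first window of 3B, stood at 23.9 ± 4.71 CPM against 0.229 ± 0.275, with Superb at a mean of 18.7 CPM. Its highest DH2 library, at 12.2 CPM, was untreated replicate 3.

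After MeJA, TraesCS7D01G008100 of the higher pair and both genes of the lower pair were higher than after water in the line that had them. The difference in the MeJA effect between the lines was called for none of them. TraesCS7D01G008100, near the start of 7D, stood at 19.8, 54.6 and 27.9 CPM in MeJA-treated DH1. The DH1 water libraries had 0 counts of it (adjusted p for MeJA against water in DH1 = 2.58e-11). MeJA-treated DH2 stood at 0.185, 0.160 and 0, and MeJA-treated Superb at 0, 0.0854 and 0.176. All MeJA-treated DH1 libraries lay above the rest, with a log2 fold change between the lines of 7.97 ± 0.57 (adjusted p = 1.94e-10). TraesCS4A01G300800 was its counterpart in DH2. It stood at 41.9, 68.8 and 44.0 CPM after MeJA and at 2.49, 3.35 and 2.53 after water in DH2, which also had it untreated, a MeJA log2 fold change of 4.23 (adjusted p = 1.32e-06). Every DH1 and every Superb library had 0 counts of it. Against a floor of 3 counts over the 14 DH1 libraries, it was at least 698-fold higher in DH2 over all conditions.

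TraesCS6A01G373900 and TraesCS1A01G301900 were called between the lines in every condition, as was TraesCS4A01G300800. TraesCS6A01G373900, the other gene of the lower pair, stood at 0.0237 ± 0.0411 CPM in MeJA-treated DH1 and 49.1 ± 14.1 in DH2. MeJA-treated Superb stood at 49.8 ± 12.4. In DH2 the gene stood at 30.5 ± 1.07 CPM after water, a MeJA log2 fold change of 0.68 (adjusted p = 0.0074). TraesCS1A01G301900 stood at 38.2 ± 1.32 CPM in DH1 and 0.0266 ± 0.0461 in DH2. Over all DH2 libraries it reached 12.8 CPM, in 1 water library, where the water libraries stood at 4.30 ± 7.32 and the untreated ones at 1.72 ± 2.92. Superb had it at a mean of 43.2 CPM.

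After SA the higher pair lay on 7B and 3D and the lower pair on 5D and 3B. TraesCS7B01G131100 stood at 33.8, 32.2 and 30.0 CPM in DH1 and at 0.139, 0.167 and 0 in DH2, a log2 fold change of 7.99 ± 0.83 (adjusted p = 1.14e-08). TraesCS3D01G061900 stood at 37.4 ± 16.5 CPM in DH1 and 0.374 ± 0.232 in DH2. It was raised by MeJA in DH1, to 131 ± 64.8 CPM from 25.7 ± 12.1 after water (log2 fold change 2.36, adjusted p = 0.0152), and stood at 1.20 ± 0.850 in MeJA-treated DH2. The difference in its MeJA effect between the lines was not called. In untreated spikelets the gene was not called either, at 3.01 ± 2.83 CPM in DH1 and 2.96 ± 5.13 in DH2 (adjusted p = 0.99). TraesCS5D01G522100 stood at 0.235 ± 0.0542 CPM in DH1 and 40 ± 2.91 in DH2, and TraesCS3B01G603100 at 0.217 ± 0.0689 and 23.7 ± 2.27. Superb had the first of that pair, at a mean of 38.4 CPM, and lacked the second, at 0.286.

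After ethephon, with the genes named above left out, the higher pair lay on 5B and 5D and the lower pair on 7A and 6D. TraesCS5B01G529500 stood at 39.1 ± 1.99 CPM in DH1 (n = 2) and 0.668 ± 0.0834 in DH2 (n = 3), a log2 fold change of 5.87 ± 0.28 (adjusted p = 2.37e-13). TraesCS5D01G536900 stood at 17.7 ± 2.24 and 0.593 ± 0.255 CPM. TraesCS7A01G562900 had 0 counts in both DH1 libraries and stood at 24.2 ± 3.04 CPM in DH2. TraesCS6D01G381700 had 0 counts there and stood at 17.9 ± 2.13 CPM. Over all conditions DH1 had 2 counts of the first and 1 of the second. Over the alternatives run, the ethephon log2 fold change of the first ran from -11.28 to -3.09. That of the second ran from -10.85 to -3.11.

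The response to the hormones was called as different between the lines in few genes. A difference in response is the change from water to the hormone in DH1 minus that in DH2, tested as an interaction. For MeJA it was called in 10 genes (0.0158%), 4 with the higher change in DH1 and 6 with the lower. For SA it was called in 0 genes (0%), with 1172 at an unadjusted p under 0.05 in edgeR and 2 called by DESeq2. For ethephon it was also called in 0 genes (0%), with 1571 at an unadjusted p under 0.05 and 1 called by DESeq2. Both unadjusted counts lie below a share of 0.05 of the 63215 tested genes, which this cut passes where nothing differs. They are therefore no sign of further differences. The change from untreated to 8 h after water differed in 4 genes (0.00633%). The 4 differences share the water libraries, so they are not independent of each other. A joint test of all 4 differences called 17 genes (0.0269%). On simulated counts the test of the difference in MeJA effect missed most of the smaller planted differences and many of the larger ones, so these low counts do not show that the lines responded alike.

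Among the named genes, the MeJA effect in DH1 exceeded that in DH2 most in TraesCS5A01G547700. This gene, in the last window of 5A, stood at 38.5, 45.6 and 58.6 CPM after water and 392, 497 and 444 after MeJA in DH1. In DH2 it stood at 37.0, 26.8 and 24.6 after water and 43.6, 28.0 and 36.6 after MeJA. The MeJA-treated DH1 libraries lay far above every other library of both lines, and MeJA-treated Superb stood at 432, 500 and 533. MeJA raised it by a log2 fold change of 3.23 in DH1 (adjusted p = 1.6e-12), while the change in DH2 was 0.29 (adjusted p = 0.251). The difference of 2.94 ± 0.24 had an adjusted p of 5.91e-07.

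TraesCS6A01G382500, in a dense window near the end of 6A, moved in opposite directions. In DH1 it fell from 20.4, 21.3 and 16.1 CPM after water to 8.44, 9.69 and 10.9 after MeJA (log2 fold change -0.99, adjusted p = 4.01e-05). In DH2 it rose from 9.72, 9.98 and 10.3 CPM to 28.3, 34.7 and 28.2 (1.60, adjusted p = 2.79e-08). Superb resembled DH2 after MeJA, at 33.0, 27.9 and 29.1 CPM. The difference was -2.59 ± 0.22 (adjusted p = 6.7e-07). TraesCS6A01G382500 was also 1 of the genes whose change from untreated to water differed, by 1.68 ± 0.23 (adjusted p = 0.00715). The same water libraries enter both differences with opposite signs, so the differences are not independent. That gene stood at 7.06, 7.42 and 6.43 CPM in untreated DH1 and at 12.5, 10.6 and 11.9 in untreated DH2. The difference over 8 h of water had an adjusted p of 0.0552 without DH1 untreated replicate 3, and between 1.24e-06 and 0.182 over its alternatives.

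TraesCS5B01G394300 rose after MeJA in DH1, from 2.10, 3.37 and 1.70 CPM to 11.2, 17.9 and 16.2. In DH2 it stood at 1.4, 1.5 and 1.16 CPM and then at 1.29, 1.76 and 2.08. The difference was 2.28 ± 0.37 (adjusted p = 0.0201). TraesCS3B01G353800 stood at 3.72, 3.77 and 4.81 CPM after water and 2.38, 2.56 and 2.84 after MeJA in DH1, and rose from 1.70, 1.77 and 1.37 to 3.14, 4.31 and 3.17 in DH2. Its difference of -1.81 ± 0.32 had an adjusted p of 0.0432. These calls were less steady: 8 of 17 alternatives kept the first and 3 of 17 the second, against 17 of 17 for TraesCS5A01G547700 and for the MeJA difference of TraesCS6A01G382500.

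The number of MeJA differences moved by over 1.5 times without most of the single libraries. It was 3, 4 and 6 without DH1 water replicates 1, 2 and 3, and 6, 3 and 4 without DH1 MeJA replicates 1, 2 and 3. It was 3 and 5 without DH2 water replicates 1 and 2, and 3 and 6 without DH2 MeJA replicates 2 and 3.

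**Figure D5:**
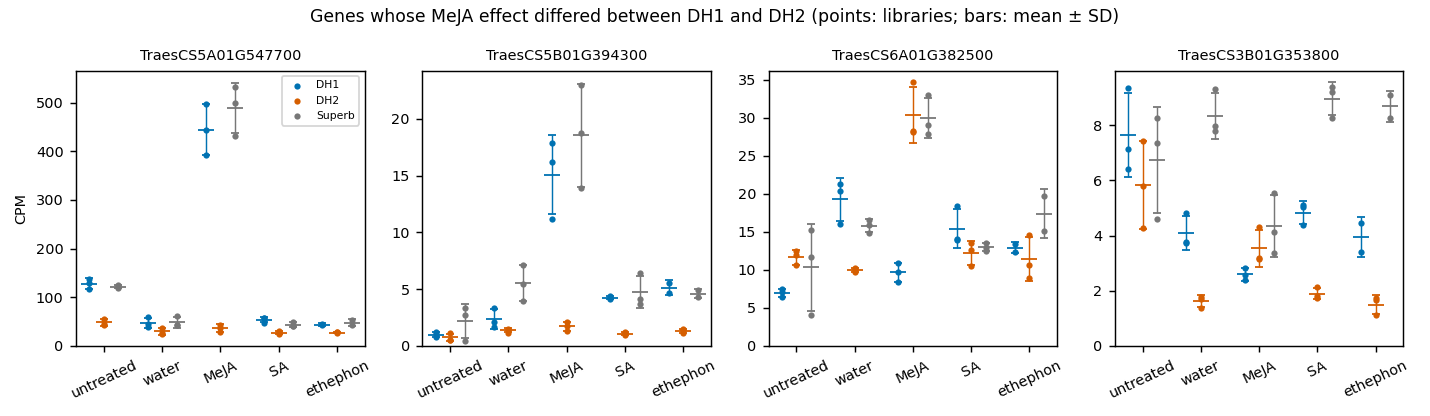
CPM by condition for the 4 named genes whose MeJA effect differed between DH1 and DH2, where points are libraries and bars the mean ± SD (n = 3, or 2 for ethephon in DH1 and Superb). After MeJA, TraesCS5A01G547700 stands at 392 to 497 CPM in DH1 and at 28.0 to 43.6 in DH2, and TraesCS6A01G382500 at 8.44 to 10.9 in DH1 and 28.2 to 34.7 in DH2.

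Over 8 h of water TraesCS7A01G339800 fell further in DH1. It went from 25, 23.5 and 24.0 CPM untreated to 8.98, 8.73 and 8.32 in DH1 and from 40.1, 36.3 and 44.8 to 30.8, 32.1 and 25.1 in DH2. The difference was -1.02 ± 0.16 (adjusted p = 0.0401), and 5 of 17 alternatives kept the call. TraesCS7B01G131100 rested on 1 library. Its difference of 6.74 ± 1.20 (adjusted p = 0.0401) came with 11.9 CPM in DH2 untreated replicate 3, where the other DH2 libraries ran from 0 to 0.240. Without that replicate the difference was 1.45 with an adjusted p of 1, and over its alternatives the adjusted p ran from 0.000424 to 1. The count of 4 genes was 1 and 0 without DH1 untreated replicates 2 and 3, 2 and 1 without DH1 water replicates 1 and 2, and 15 and 2 without DH2 untreated replicates 1 and 3. It was 1, 1 and 2 without DH2 water replicates 1, 2 and 3.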

How the data were processed

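The deposited table holds raw read counts per gene for 45 libraries; that no scaling was applied by the authors was read from the values, which are whole numbers with unequal totals. STAR 2.5.3a and DESeq2 are named, without their settings, in the submitters' processing notes. How reads were counted, and on which strand, is not given in the sources used here, so reads of overlapping and near-identical genes may be shared. Of 110790 identifiers, 63215 passed edgeR's filterByExpr over 10 line-by-condition groups and held 99.74% of the counts. Totals ran from 6685796 to 17940396, and the 28 replicate pairs differed by a chi-square per degree of freedom of 2.23 to 19.1. None was taken as a duplicate.

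In R 4.3.3 with edgeR 4.0.16, TMM-scaled counts were fitted with glmQLFit (legacy = FALSE) to line plus condition (23 residual degrees of freedom), or to 10 group means for single conditions and differences in response (19). A call is a Benjamini-Hochberg adjusted p under 0.05 over all genes tested. Standard errors are the absolute log2 fold change over the square root of F. CPM was computed from the deposited counts with TMM factors over 45 libraries, and log2 CPM with a prior count of 1. Fitted fold changes of genes with few counts in a line depend on that fit. Windows used the gene order in the identifiers. The steps were tested on simulated data, where a planted window and most planted changes between the lines were found, but most planted differences in the MeJA effect were missed. False calls were clearly more frequent than the threshold implies in both. Their share exceeded the limit first set for this test, which was then raised with the design kept, so calls near the threshold are less certain than their adjusted p states. An older form of the fit with robust spread was therefore added for the comparison over all conditions. Its false calls on simulated data are not given here. Alternatives were DESeq2 1.42.0, other scalings, filters, thresholds and libraries left out.

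Members, gene lists and rules were chosen with earlier results of these data known. Named genes were the highest and lowest pair by fold change in each comparison, among called genes whose mean log2 CPM was 1 or more, and, over all conditions, whose lines did not overlap in any condition; for single conditions, taken in the order given, genes already named were passed over. None of the identifiers matched the reference names (0), so genes have no names, pathway lists were not used and no sequences are shown.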

Additional observations from a re-analysis of the deposited data

Results flagged for a closer look

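edgeR's test of the difference itself called 10 genes for the MeJA effect and 4 for the change over 8 h of water, with n = 3 libraries a group, and the 6 named genes among them are given here. For the MeJA effect (DH1 minus DH2, log2) the values were 2.94 for TraesCS5A01G547700, 2.28 for TraesCS5B01G394300, -2.59 for TraesCS6A01G382500 and -1.81 for TraesCS3B01G353800. For the change from untreated to 8 h after water they were 6.74 for TraesCS7B01G131100, 1.68 for TraesCS6A01G382500 and -1.02 for TraesCS7A01G339800. Both values of TraesCS6A01G382500 use the same water libraries, so they are not independent. The value of TraesCS7B01G131100 was 1.45 without DH2 untreated replicate 3.

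DH1 ethephon replicate 1, which took no part in the comparison, held signal at genes that the other DH1 libraries lack. Over the 126 genes near absent in DH1 its summed level was 10.9% of the DH2 level, where the other DH1 libraries lay between 0.147% and 0.332%. Of these genes 20 stood at 1 CPM or more, against 0 in any other DH1 library. For the 46 that Superb has, the level was 2.82% of DH2, and for the 75 that Superb lacks it was 16.0%. The cause was not tested.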

How the results depend on the processing

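Of 31 named results, 26 kept their call under each alternative run, and none changed direction. With no filter on low counts the large differences numbered 4091 and the MeJA differences 6. A threshold of 2 on the log2 scale left 1132. DESeq2 called 19 differences in the MeJA effect, 2 for SA, 1 for ethephon and 8 for 8 h of water. Without both DH2 untreated replicate 3 and water replicate 1, which was added after seeing the data, there were 3 differences for MeJA and 0 for 8 h of water, and the main count was 12931. The older fit with robust spread, also added, called 12349 genes and 2643 large differences. Dense windows numbered 86 with 50 genes, 18 with 200, 73 at 2 times and 14 at 5 times the overall share, and 3 with no size threshold. Superb was nearer to DH1 in 52.63% with its ethephon replicate 1 included and in 58.44% by untreated libraries only. The cause of these shifts was not tested.

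Leaving out 1 library at a time gave 11736 to 13759 genes over all conditions and 2546 to 3106 large ones. It gave 226 to 268 near-absent genes and 34 to 43 dense windows. By condition it gave 1219 to 1768 untreated, 1573 to 2728 for water, 1464 to 1931 for MeJA, 1564 to 4076 for SA and 897 to 1355 for ethephon. The differences in response ran from 3 to 13 for MeJA, 0 to 15 for 8 h of water and stayed at 0 for SA and ethephon.

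Replicate numbers are shared by the groups. Of 14 pairs of DH1 and DH2 libraries with the same number, 11 deviated together with a correlation over 0.1 (median 0.237, highest 0.565). In 10 the correlation was best with their own number. The main fits did not take the numbers as pairs, so any effect shared by libraries of 1 number stayed in their spread. With the replicate block, 15067 genes were called over all conditions, and 1 gene for the difference over 8 h of water. At these totals 1 count in a library is worth more than 0.05 CPM, so a mean at or below that level rests on a few single counts.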

Other observations

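The levels that DH2 untreated replicate 3 showed at genes absent from the other DH2 libraries were uneven along the genome. Over genes that Superb has, they stood at 133% of the DH1 level for 9 genes of 3B, 59.6% for 6 genes of 7B, 54.8% for 7 genes of 2A and 54.4% for 7 genes of 5A. On 1A they stood at 8.87% for 14 genes. In DH1 ethephon replicate 1, over genes that DH1 lacks, the level was 24.3% of DH2 for 9 genes of 6D and 15.9% for 13 genes of 3B, and 0.336% for 10 genes of 6A and 0.221% for 10 genes of 5D.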
